A study of Mus musculus with 8 samples.

Results

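The 10 genes described here encode proteins that release, take up, carry or activate fatty acids: Lpl, Gpihbp1, Angptl4, Cd36, Slc27a1, Slc27a4, Acsl1, Fabp3, Fabp4 and Fabp5. They were chosen by name, and all 10 were found among the 47643 named genes of the RNA-seq table. Of these 10, 9 passed the filter on low counts and were tested with 15327 genes in all. The cells were mesenchymal stem cells (MSCs) grown out from marrow flushed from the tibiae and femurs of C57BL/6 mice, and the mice's age is not given in the sources used here. All 8 samples had spent 2 days in osteogenic medium with ascorbic acid (50 μg/ml), β-glycerophosphate (5 mM) and dexamethasone (100 nM). For RNA-seq, 2 libraries came from Prx1-Cre;Mettl3fl/fl mice (cKO in the labels) and 2 from controls that the labels call wild type (WT). The study's results give these controls as Mettl3fl/fl, and its methods call them littermates. Both groups thus carried the floxed Mettl3 alleles, in which Cre removes exons of the methyltransferase gene. Prx1-Cre is active in limb mesenchyme and its descendants, so blood-lineage cells in the same culture lie outside its reach. For m6A MeRIP-Seq, 2 immunoprecipitates (m6A IP) and 2 inputs were prepared from MSCs labelled wild type, and the study's authors deposited 1 list of 10160 peaks for them.

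Fat reaches cells mostly as triglyceride in lipoproteins or as free fatty acid bound to albumin. Lipoprotein lipase splits the triglyceride, Gpihbp1 holds the enzyme on capillary endothelium, and Angptl4 inactivates it. Cd36 and the fatty acid transport proteins bring the released fatty acids into the cell, Acsl1 couples them to coenzyme A, and fatty acid binding proteins carry them through the cytosol. Adipocytes are known for high Lpl, Cd36 and Fabp4, and macrophages also express Lpl, Cd36, Fabp4 and Fabp5. Mettl3 is the catalytic subunit of the enzyme that writes N6-methyladenosine (m6A) on mRNA, mostly at the A of GGAC or related sequences.

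In the m6A list, 4 of the 10 genes had a peak: Angptl4, Slc27a1, Acsl1 and Fabp5. The GGAC nearest to each summit is shown with its flanks because it is the known sequence context of the mark. Each line gives 25 bases of the transcript strand, 5′ to 3′, from the mm9 genome, with GGAC in capitals. The windows lie at chr17:33912200-33912224 (Angptl4, minus strand), chr8:74109971-74109995 (Slc27a1, plus strand), chr8:47619941-47619965 (Acsl1, plus strand) and chr3:10014966-10014990 (Fabp5, plus strand).
Angptl4: tgcgtcttgtGGACaaagaagaagc
Slc27a1: ggctgggcctGGACtcctgagacct
Acsl1: ccctgccgccGGACttgtccacggg
Fabp5: cacaggagtaGGACtggctcttagg
In Slc27a1, Acsl1 and Fabp5 the motif was followed by T, and in Angptl4 by A. The A of the motif lay 1 nt from the summit in Slc27a1, 5 nt in Angptl4, 13 nt in Acsl1 and 19 nt in Fabp5. The Fabp5 window crosses the start of exon 2 of the coding transcript (10014971), so its first bases are intron of that transcript. The Fabp5 motif itself lies in the coding sequence.

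The peaks of Angptl4, Slc27a1 and Acsl1 all covered the stop codon, as the map of peaks around the stop codon shows. Their summits were in the 3′UTR of the last exon, 117, 26 and 108 nt downstream of the first base of the stop codon. The Angptl4 peak (chr17:33912037-33912358 of mm9, exon 7 of 7) had a fold enrichment of 6.00 over local background, above 80.9% of all peaks in the list, with a pileup of 38. The Acsl1 peak (chr8:47619655-47620042, exon 21 of 21) had a fold enrichment of 3.79, above 44.4% of peaks, and a pileup of 80. The Slc27a1 peak (chr8:74109804-74110060, exon 14 of 14) had 2.64, above 15.1%, and a pileup of 118. By −log10 q the 3 peaks stood closer together, at 16.2, 19.7 and 16.5 in the same order, where the median peak had 14.2. All of these are the authors' values from a single list, so they carry no replicate error, and the depth behind them is unknown.

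**Figure D1:**
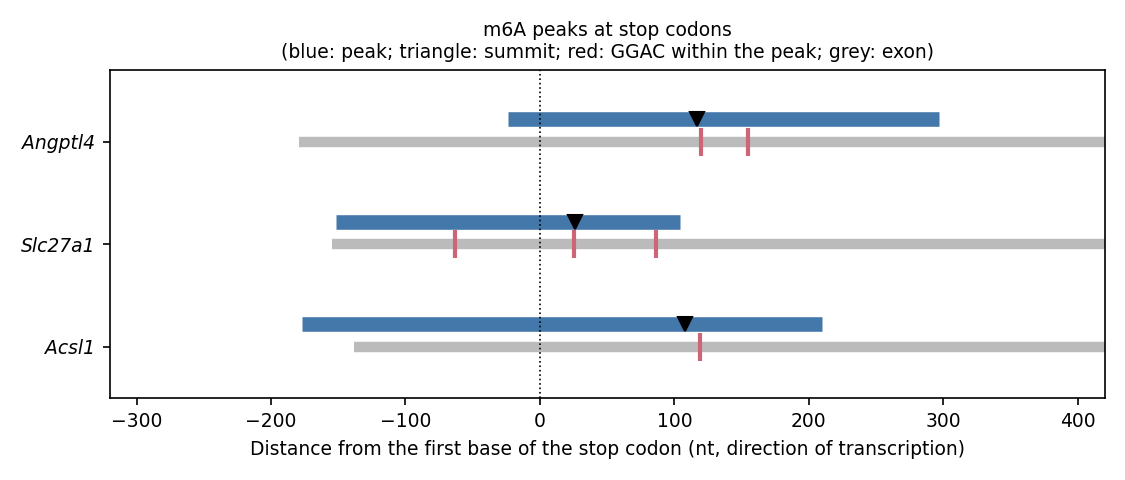
Genomic distance in nt from the first base of the stop codon, in the direction of transcription, for the peaks of Angptl4, Slc27a1 and Acsl1. Bars in blue are peaks, triangles are summits, red ticks mark the start of each GGAC within a peak, and grey marks exons. Each peak spans the stop codon, and each summit lies 26 to 117 nt downstream of it.

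The Fabp5 peak differed in place. It ran from 10014804 to 10015004 of chromosome 3 (mm9), and 34 of its 201 bases were in exon 2 of the coding transcript. Its summit was 12 nt upstream of that exon, in an intron of the coding transcript and in an annotated noncoding exon of the gene. Its fold enrichment was 2.55, above 12.8% of peaks, with the largest pileup of the 4 (128) and a −log10 q of 16.8.

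No peak was listed for Lpl, Cd36, Fabp4, Fabp3, Slc27a4 or Gpihbp1. Among all tested genes that could be placed on the mm9 annotation, 40.1% had a peak (5658 of 14118, 95% Wilson interval 39.3% to 40.9%, counting error only), beside 4 of the 9 tested members. The share rose with expression, from 16.8% in the lowest quartile of WT-labelled CPM to 53.5% in the highest, where Lpl, Cd36, Fabp4, Fabp5 and Acsl1 stood. The coding transcript of Fabp4 (637 nt) held no GGAC, which was so for 0.453% of 13468 tested genes. Of the 61 tested genes whose coding transcript held none, 16.4% still had a peak. The coding transcripts of Lpl and Cd36 held 12 and 9 GGAC, or 2.92 and 2.52 per kb, beside a median of 4.26 per kb over the tested genes. Angptl4 (6.55 per kb), Slc27a1 (8.23 per kb) and Fabp5 (5.07 per kb) were above that median, and Acsl1 (3.85 per kb) was below it. A missing peak shows only that none was called at this unknown depth.

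The RNA-seq libraries held 23978099 to 34106693 estimated counts each. Mettl3 measured 17.6 and 16.9 CPM in the WT-labelled libraries and 17.5 and 16.3 CPM in the cKO-labelled ones (log2 fold change −0.03, adjusted p = 0.824, edgeR). These counts include the exons that Cre leaves in place and the gene overlaps Tox4 on the other strand, so they check no label, and every direction below rests on the labels. The WT-labelled libraries differed from each other far more than the cKO-labelled pair did (chi-square statistic 32.6 and 1.82 times its expectation over genes). Fits that leave out a WT-labelled library take their spread from the close cKO-labelled pair alone, and their very small p-values rest on it. The cKO-labelled libraries were therefore also summed to 1 sample, which lowered the genes called from 4677 to 2012. The labels do not say that replicates came from separate mice, so the p-values may measure technical spread only. With 2 libraries against 2, an exact two-sided permutation test cannot go below p = 0.333, and the p-values here come from the fit across all genes.

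Markers of other cells were read in the same libraries, since several of the genes are not particular to stromal cells. Counts of markers past an adjusted p of 0.05 stand beside 13.7% higher and 16.8% lower over all genes tested. Macrophage transcripts were abundant in cells labelled MSCs. Per transcript length Lyz2, the lysozyme gene, stood at 14418 to 21709 TPM, while the stromal chemokine Cxcl12 stood at 135 to 238 TPM and Prrx1 at 37.9 to 88.5 TPM. The other macrophage markers were far below Lyz2, from Fcgr1 (10.1 to 11.3 TPM) up to Mpeg1 (610 to 925 TPM). The stromal Ly6a (406 to 493 TPM) lay within that span too. Of 12 macrophage markers listed, 11 were found in the table, the other being Emr1, an older name of Adgre1, which was found. These 11 had counts in every library and together took 17200 to 21800 CPM in the WT-labelled and 23000 to 23100 CPM in the cKO-labelled libraries. Of these 11, Ptprc, the pan-leukocyte phosphatase (log2 fold change 0.42), and Mpeg1, a macrophage pore-forming protein (0.48), were higher in the cKO-labelled libraries (adjusted p = 0.00333 and 0.00145, edgeR), and 9 did not pass. Both lost the call without either cKO-labelled library (adjusted p = 0.0547 to 0.0740). Lyz2, which took most of the summed CPM of the 11, measured 10984 and 15934 CPM in the WT-labelled and 15633 and 15714 CPM in the cKO-labelled libraries. The 11 marrow stromal markers took 1030 to 1160 CPM and 1190 CPM, with 4 higher and 5 lower. Thy1 rose most (log2 fold change 4.59), Nt5e fell most (−2.35), and Prrx1, whose enhancer drives Prx1-Cre, rose by 1.05. Cxcl12 went from 347 and 249.5 CPM to 189 and 191 CPM (−0.65, adjusted p = 0.0184, edgeR). It was −0.39 without WT-labelled replicate 1 and missed the threshold with the cKO-labelled libraries summed (adjusted p = 0.0518). The part of these markers in the differences of the 10 genes was not tested, and fewer cells of a type cannot be told apart from less RNA per cell.

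Per transcript length, on the TPM scale, 4 of the 10 genes carried most of the RNA. Fabp5, Cd36, Fabp4 and Lpl made up 88.9% to 93.3% of the summed TPM of the 10 in every library. In the WT-labelled libraries Fabp5 was highest (388 ± 26.9 TPM, SD, n = 2), followed by Cd36 (162 ± 58.5 TPM), Fabp4 (125 ± 6.17 TPM) and Lpl (99.2 ± 3.23 TPM). The Cd36 and Fabp4 values overlapped between libraries, so their order was not resolved. Acsl1 (27.3 ± 0.0990 TPM) and Slc27a1 (26.9 ± 2.54 TPM) overlapped too, and Slc27a4 (17.0 ± 1.83 TPM), Fabp3 (10.8 ± 1.63 TPM) and Angptl4 (7.30 ± 2.84 TPM) were below them. In the cKO-labelled libraries the order of the upper 4 was Fabp5 (429 ± 3.72 TPM), Fabp4 (268 ± 4.01 TPM), Lpl (204 ± 0.976 TPM) and Cd36 (116 ± 2.07 TPM), with no overlap between neighbours.

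Between the groups, 6 of the 9 tested genes passed an adjusted p of 0.05. Lpl and Fabp4 were higher in the cKO-labelled libraries, and Angptl4, Cd36, Acsl1 and Slc27a1 were lower. Over all genes tested 30.5% passed, 13.7% as higher and 16.8% as lower, so that 2 higher and 4 lower of 9 stand beside those shares as a description. The median log2 fold change of the 9 was −0.29, beside −0.0038 over all genes tested. The 2 groups did not overlap for 7 of the 9, as for 68.9% of all genes tested. The enzyme and its inhibitor moved in opposite directions, as did the surface receptor Cd36 and the cytosolic carrier Fabp4. Adjusted p-values of single genes are two-sided, from the quasi-likelihood test of edgeR, adjusted by Benjamini-Hochberg over all genes tested.

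**Figure D2:**
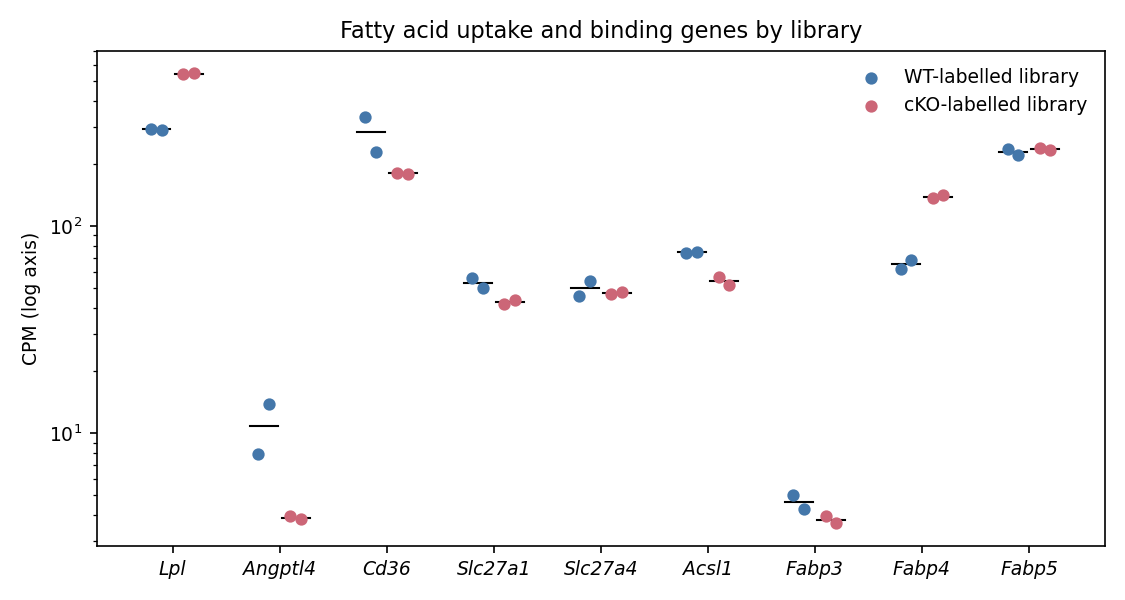
CPM on a log axis of the 9 genes with counts, by library; points are libraries (WT-labelled blue, cKO-labelled red) and lines are means of 2. Lpl and Fabp4 sit higher in both cKO-labelled libraries, whereas the WT-labelled points of Cd36 and Angptl4 are far apart.

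Lpl (ENSMUSG00000015568, chromosome 8, 68880491 to 68907448 of mm10) encodes the lipase itself. It measured 293 and 292 CPM in the WT-labelled libraries and 543 and 547 CPM in the cKO-labelled ones. The pairs were tight and far apart. The log2 fold change was 0.90 (standard error 0.0554, 95% confidence interval 0.76 to 1.03, adjusted p = 0.000131), or 1.86-fold. Leaving out any library left it between 0.89 and 0.91.

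Angptl4 (ENSMUSG00000002289, chromosome 17, 33773750 to 33781575), the secreted inhibitor of that lipase, was read from few counts, 96 to 389 per library. It measured 7.96 and 13.8 CPM in the WT-labelled and 3.96 and 3.83 CPM in the cKO-labelled libraries. Both cKO-labelled values were below both WT-labelled ones, which themselves were apart by 0.79 on the log2 scale (−0.79, replicate 1 minus 2). The log2 fold change was −1.47 (standard error 0.272, interval −2.13 to −0.82, adjusted p = 0.00963). It was −1.82 without WT-labelled replicate 1 and −1.03 without replicate 2. By limma on log2(TPM + 1) the change was −1.03 and missed the threshold (adjusted p = 0.0502, or 0.122 without the filter on low counts). On the TPM scale, Lpl stood 19.2 and 10.4 times above Angptl4 in the WT-labelled libraries and 66.4 and 72.3 times above it in the cKO-labelled ones.

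Gpihbp1 (ENSMUSG00000022579, chromosome 15, 75598147 to 75599481), the endothelial anchor of the lipase, had 0 counts in all 4 libraries, which allows up to 0.0887 to 0.124 CPM per library (3 counts, counting error only). The endothelial markers beside it were low. Pecam1 stayed between 0.157 and 0.266 CPM and Cldn5 had no counts. The 9 endothelial markers together took 12.3 to 13.3 CPM in the WT-labelled and 25.2 to 27.5 CPM in the cKO-labelled libraries. Of the 5 tested, Kdr (log2 fold change 2.14), Emcn (3.47) and Vwf (0.44, but −0.24 and −0.19 on the TPM scale) were higher and Egfl7 (−1.16) was lower, all under 10 CPM.

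Cd36 (ENSMUSG00000002944, chromosome 5, 17781690 to 17888801), the surface receptor for long-chain fatty acids, measured 338 and 229 CPM in the WT-labelled libraries. The cKO-labelled libraries stood at 180.0 and 179 CPM, below both. WT-labelled replicate 1 stood above replicate 2 by 0.56 on the log2 scale, nearly as much as the groups differed. The log2 fold change was −0.66 (standard error 0.167, interval −1.06 to −0.25, adjusted p = 0.0287). It was −0.34 without WT-labelled replicate 1 and −0.91 without replicate 2. It missed the threshold with the cKO-labelled libraries summed (adjusted p = 0.0683) or with either left out (0.0754 without replicate 1 and 0.0753 without replicate 2, edgeR), in a range from 1.8e-222 to 0.410 over all alternatives. The macrophage markers gave no single picture beside it. In WT-labelled replicate 1, with the higher Cd36, Lyz2 was lower than in replicate 2, whereas the macrophage receptors Mrc1 (998 and 629 CPM) and Cd68 (510.2 and 384 CPM) were higher, as was Cxcl12.

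Slc27a1 and Slc27a4 encode fatty acid transport proteins, which take up long-chain fatty acids and also activate them. Slc27a1 (ENSMUSG00000031808, chromosome 8, 71568927 to 71586708) measured 55.8 and 50.0 CPM in the WT-labelled and 42.0 and 44.1 CPM in the cKO-labelled libraries. The fall was small (log2 fold change −0.30, standard error 0.0804, interval −0.49 to −0.10, adjusted p = 0.0345). The change was −0.21 without WT-labelled replicate 1. It missed the threshold with the cKO-labelled libraries summed (adjusted p = 0.250) or with replicate 1 or 2 of them left out (0.308 and 0.191, edgeR), in a range from 3.9e-11 to 0.308 over all alternatives. Slc27a4 (ENSMUSG00000059316, chromosome 2, 29802634 to 29817522) measured 46.0 and 54.3 CPM and 46.9 and 47.8 CPM, so that the cKO-labelled values lay between the WT-labelled ones. Its log2 fold change was −0.08 (interval −0.30 to 0.14, adjusted p = 0.556), and smaller changes within this interval were not detectable. It was 0.04 without WT-labelled replicate 2, and −0.19 with an adjusted p of 0.00174 (edgeR) without replicate 1, in a range to 0.891.

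Acsl1 (ENSMUSG00000018796, chromosome 8, 46471041 to 46536051), the acyl-CoA synthetase that is abundant in fat tissue, measured 74.2 and 74.8 CPM in the WT-labelled and 56.5 and 52.0 CPM in the cKO-labelled libraries. The WT-labelled pair was tight and lay wholly above the cKO-labelled pair. The log2 fold change was −0.46 (standard error 0.0682, interval −0.62 to −0.30, adjusted p = 0.00420). It was −0.40 without cKO-labelled replicate 2, with an adjusted p of 0.0916 (edgeR), in a range from 2.4e-20 to 0.0938 over all alternatives.

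Among the binding proteins, the adipocyte form Fabp4 (ENSMUSG00000062515, chromosome 3, 10204088 to 10208576) measured 61.9 and 68.8 CPM in the WT-labelled and 137 and 140.5 CPM in the cKO-labelled libraries. Both cKO-labelled values were far above the WT-labelled ones. The log2 fold change was 1.08 (standard error 0.0720, interval 0.91 to 1.26, adjusted p = 0.000179), the largest rise of the 9. Fabp5 (ENSMUSG00000027533, chromosome 3, 10012548 to 10016607), the epidermal form that macrophages also use, lies on the same chromosome and gave 235 and 221 CPM and 237 and 234 CPM. Its log2 fold change was 0.05 (interval −0.10 to 0.19, adjusted p = 0.609), and it was 0.10 with an adjusted p of 0.00335 (edgeR) without WT-labelled replicate 1, in a range to 0.980. Fabp3 (ENSMUSG00000028773, chromosome 4, 130308595 to 130315463), the heart and muscle form, was low, with 5.00 and 4.28 CPM and 3.96 and 3.67 CPM. Its log2 fold change was −0.29, with a wide interval from −0.71 to 0.14 (adjusted p = 0.263). Fabp3 is uncertain, since 81 bases of it overlap Zcchc17 on the other strand and no source says whether reads were counted by strand. Without WT-labelled replicate 1 its change was −0.16.

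**Figure D3:**
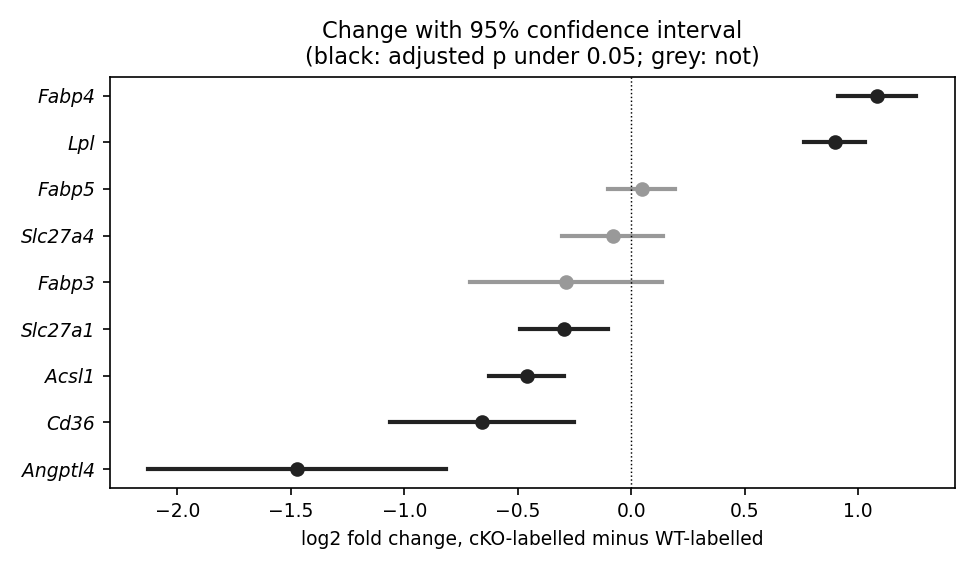
The log2 fold change (cKO-labelled minus WT-labelled) of the 9 tested genes, with 95% confidence intervals from edgeR's fit; black passed an adjusted p of 0.05 and grey did not. Fabp4 and Lpl lie near 1, Angptl4 lies lowest with the widest interval, and the intervals of Fabp5, Slc27a4 and Fabp3 cross 0.

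The 3 gene families to which these members belong changed in make-up to different degrees, given here per transcript length and without a test. Fabp4 made up 20.2% and 23.3% of the summed TPM of Fabp3, Fabp4, Fabp5 and Fabp7 in the WT-labelled libraries and 37.3% and 38.1% in the cKO-labelled ones. Fabp5 went from 67.9% and 66.2% to 60.7% and 60.0%, and Fabp7 from 9.95% and 8.78% to 0.687% and 0.690%. The ratio of Fabp4 to Fabp5 was 0.297 and 0.352 in the former and 0.614 and 0.635 in the latter. Among the transport proteins Slc27a1 stayed the largest part, with 47.6% to 54.9% of the summed TPM of the tested Slc27a genes in every library. Slc27a4 followed with 30.1% to 35.9%. Acsl1 was never the main synthetase. It made up 21.6% and 20.9% of the ACSL sum in the WT-labelled and 20.2% and 17.8% in the cKO-labelled libraries, below Acsl4 and Acsl5.

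**Figure D4:**
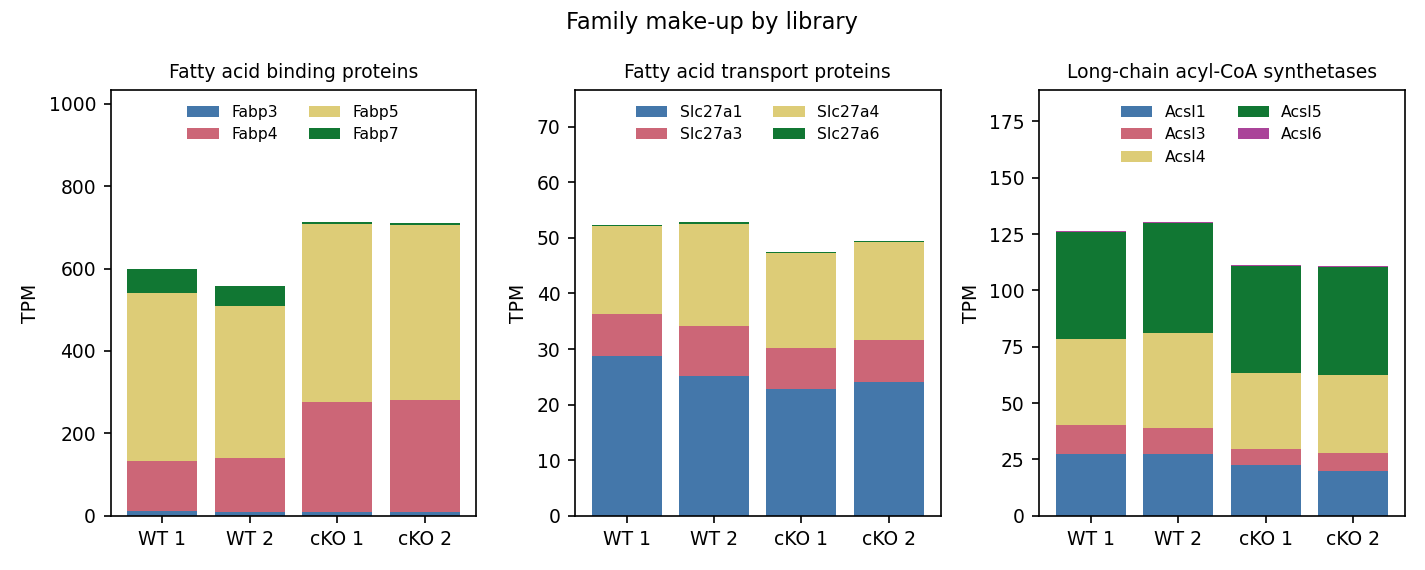
Stacked bars of TPM by library for the tested Fabp genes (fatty acid binding proteins), Slc27a genes (fatty acid transport proteins) and Acsl genes (long-chain acyl-CoA synthetases). The Fabp4 part grows from 121 and 130 TPM in the WT-labelled to 265 and 271 TPM in the cKO-labelled libraries, while the Fabp7 part shrinks to 4.89 and 4.91 TPM.

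Other genes of the same pathway were read from 6 lists, beside the shares over all genes tested (13.7% higher and 16.8% lower). The lists held 46 genes, of which 34 were tested. Of these 34, 7 were higher and 12 lower in the cKO-labelled libraries, and the total of 19 fell to 4 without either cKO-labelled library. With the cKO-labelled libraries summed 5 passed, namely Apoc2, Vldlr, Fabp7, Dbi and Acsl3, and the other pathway genes missed the threshold. The list of partners and inhibitors of the lipase also held other lipases and proteases. Of its 8 tested genes, 4 were higher, namely Apoe, Apoc2, Lipg and the protease Pcsk6 (log2 fold change 0.62), and 4 did not pass. Apoe, a ligand of lipoprotein receptors, rose from 18507 and 18158 CPM to 24488 and 24819 CPM (log2 fold change 0.43, adjusted p = 0.00236). Apoc2, the cofactor that lipoprotein lipase needs, measured 35.2 and 79.5 CPM in the WT-labelled and 120.4 and 123 CPM in the cKO-labelled libraries (1.09, adjusted p = 0.0480), from the entry with more counts of the 2 with that name. Its change was 0.62 without WT-labelled replicate 1 and 1.79 without replicate 2, and it missed the threshold in DESeq2 (adjusted p = 0.157), in limma and without either cKO-labelled library, in a range from 4.0e-252 to 0.157. Lipg, endothelial lipase, was near the detection limit and higher (1.94, adjusted p = 0.0173), and Furin, a protease that cleaves several of these proteins, gave −0.17 (adjusted p = 0.208).

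Of the 5 lipoprotein receptors, Lrp1 was higher (log2 fold change 0.40, adjusted p = 0.0274), and Vldlr (−1.24, adjusted p = 0.00603) and Scarb1 (−0.20, adjusted p = 0.0381) were lower. The Lrp1 value was 0.26 without WT-labelled replicate 2 and 0.07 on the TPM scale (adjusted p = 0.471 to 0.570, limma), and Scarb1 missed the threshold with the replicate number as a block (adjusted p = 0.0698) and in DESeq2 (0.114). Vldlr, the receptor for triglyceride-rich particles, measured 24.1 and 16.4 CPM in the WT-labelled and 7.76 and 9.35 CPM in the cKO-labelled libraries. Of the other binding proteins 2 of 7 were tested and both were lower. Fabp7, known from glial cells of the brain, fell from 24.1 and 21.1 CPM to 1.90 and 1.91 CPM, a log2 fold change of −3.57 (adjusted p = 2.2e-05). Dbi, the acyl-CoA binding protein, fell from 201 and 209 CPM to 128 CPM in both (−0.68, adjusted p = 0.000511).

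Of the other transport proteins 2 of 4 tested were lower, namely Got2 (−0.26) and Cav1 (−0.21), neither of which belongs to the Slc27a family. Got2 was −0.06 on the TPM scale (adjusted p = 0.491 to 0.533, limma), and Cav1 missed the threshold with the replicate block (adjusted p = 0.0687) and in DESeq2 (0.118). Of the other acyl-CoA synthetases 3 of 5 were lower: Acsl3 (−0.80), Acsl4 (−0.33) and Acsbg1 (−2.33, under 1 CPM in every library). Acsbg1 missed the threshold in DESeq2 (adjusted p = 0.141) and without WT-labelled replicate 2 (−1.69, adjusted p = 0.148). Acsl3 shares much of its length with Utp14b on the same strand, so its counts are uncertain. Acsl5, which is among the most expressed synthetases here, gave −0.10 (adjusted p = 0.226). Of 10 genes of mitochondrial import and oxidation, 2 were higher and 3 lower. Cpt1a, which commits fatty acids to the mitochondrion, rose by 0.33 (adjusted p = 0.0332, 0.22 without WT-labelled replicate 2), Acadl, an acyl-CoA dehydrogenase, fell by 0.42 (adjusted p = 0.00436), and Hadha (−0.12) and Acadvl (−0.17) did not pass (adjusted p = 0.245 and 0.180).

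Adipocyte markers did not move one way either. The 8 genes of the mature adipocyte list took 64.7 to 76.5 CPM in the WT-labelled and 81.8 to 82.4 CPM in the cKO-labelled libraries, and of the 7 tested 3 were higher and 2 lower. Adipoq, the adipocyte hormone adiponectin, measured 21.2 and 20.4 CPM and 32.4 and 33.1 CPM (log2 fold change 0.65, adjusted p = 0.00186), and Lipe, hormone-sensitive lipase, rose by 1.53 (adjusted p = 0.000696). Cidec, a lipid droplet protein, fell from 20.5 and 28.1 CPM to 4.13 and 4.20 CPM (−2.54, adjusted p = 0.000231), and Retn, at or under 1.88 CPM in every library, was lower as well (−2.40, but −1.84 with an adjusted p of 0.0690 without cKO-labelled replicate 1 and −3.63 without replicate 2). None of the 8 had 0 counts in every library.

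Set beside the m6A list, neither of the 2 genes that rose (Lpl and Fabp4) had a peak, whereas 3 of the 4 that fell (Angptl4, Slc27a1 and Acsl1) had one. Over the tested genes that could be placed on the mm9 annotation the shares ran the other way. A peak was on 63.2% of those called higher (1283 of 2030) and 30.2% of those called lower (761 of 2522), beside 37.8% of those not called (3614 of 9566). The share with a peak also rose with expression, which was not matched between these classes. With 6 called members the comparison is a count and no test was made. The peaks were measured in cells labelled wild type only, so no change of the mark on these transcripts can be read from them.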

How the data were processed

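The authors mapped RNA-seq reads with HISAT2 2.0.4 and tested genes with Ballgown. The deposited table holds estimated counts per gene, not normalized, and values headed FPKM that sum to 998193 to 998570 per library and were read as TPM made by the authors. The counting tool is not given in the sources used here. The submitters' processing notes name mm10 and mm9, TopHat and MACS2. The deposited peak list gives pileup signal, fold enrichment ratio and −log10 q-value, with positions of mm9.

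Estimated counts were rounded, and 89 entries without a gene name (0.110% to 0.125% of counts) were left out. After filterByExpr and TMM scaling, the quasi-likelihood test of edgeR 4.0.16 in R 4.3.3 compared WT-labelled with cKO-labelled libraries, with Benjamini-Hochberg adjustment over 15327 genes. CPM are on the TMM scale. Alternatives used DESeq2 1.42.0 and limma 3.58.1 on log2(TPM + 0.1) and log2(TPM + 1). Peaks were placed by summit on GENCODE vM1 (mm9), CDS before UTR, noncoding exon and intron.

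The members and lists were chosen with earlier results of these data known. Named were all members, in each list the 2 genes with the highest mean CPM and the 2 called genes with the largest change, Mettl3, and genes that overlap a member. Mrc1, Cd68, Fcgr1, Ly6a, Pcsk6, Egfl7, Pecam1, Cldn5, Tox4 and Utp14b were named after their values were seen.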

Additional observations from a re-analysis of the deposited data

How the results depend on the processing

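With 1 library left out in turn, the number of members past the threshold ranged from 3 to 8 (higher 2 to 3, lower 1 to 5), that of pathway genes from 4 to 27 and that of marker genes from 10 to 30. A lone library was assumed to vary like the pair of the other group. With the cKO-labelled libraries summed to 1 sample, 2 members were lower, and 5 pathway and 12 marker genes passed. DESeq2 called 2 members lower. In limma on log2(TPM + 0.1) 3 members passed (1 lower) and 8 pathway genes, on log2(TPM + 1) 2 members (0 lower, 2 at an unadjusted p under 0.05) and 7 pathway genes, and without a filter 2 members (0 lower, again 2 unadjusted), 3 pathway and 12 marker genes. Lpl and Fabp4 kept their direction and passed in every alternative run (log2 fold change 0.89 to 1.04 and 1.02 to 1.16). Angptl4, Cd36, Acsl1 and Slc27a1 kept their direction in all of them but not their calls. Over all genes 4677 passed, 2012 with the cKO-labelled libraries summed, 3642 by DESeq2, 1658 to 3221 by limma and 1867 to 8750 with a library left out. In limma (pseudocount 0.1, pseudocount 1, and 1 with no filter) Slc27a4 turned to 0.0269, 0.0254 and 0.0254, Hadha to 0.0103, 0.0102 and 0.0102, and Vwf to −0.2404, −0.1882 and −0.1882. With a library left out Slc27a4 ranged from −0.1884 to 0.0412. In the same way Fabp5 ranged from −0.0011 to 0.0996, Lyz2 from −0.0172 to 0.5105 and Mettl3 from −0.0782 to 0.0226. The cause was not tested. With the replicate number as a block, the same count of members passed (6) and of pathway genes 17, with Scarb1 and Cav1 lost; the correlation of the replicate differences between the groups was 0.03, so the numbers were not taken to pair the libraries. With peaks of at least 4-fold enrichment only Angptl4 kept one (1 of 10 genes, beside 22.7% of 14118 tested genes), whereas 4 had one at a −log10 q of at least 10 (30.6% of tested genes) or by any exon overlap (40.9%). On log2(TPM + 1) low genes moved most, Lipg to 0.41, Acsbg1 to −0.27, Kdr to 1.15, Emcn to 2.27, Retn to −1.44 and Nt5e to −1.46.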
